A study of Mus musculus with 183 samples.

Results

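Nonsense-mediated decay (NMD) removes mRNAs on which a ribosome terminates too early. Its central factor, the helicase UPF1, meets the terminating ribosome and the release factors, and UPF2, UPF3A and UPF3B link it to exon junction complexes left downstream by splicing. The kinase SMG1, held in check by SMG8 and SMG9, phosphorylates UPF1. Phosphorylated UPF1 is then bound by SMG5 and SMG6, of which SMG6 is the endonuclease that cuts the RNA and SMG5 brings in deadenylation and decapping. Several NMD factor mRNAs are known to be NMD substrates themselves, a feedback in which their levels rise when the pathway slows. The fragments of an NMD target are degraded by XRN1 from the 5′ end and by the exosome with its cytoplasmic helicase SKIV2L from the 3′ end.

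The mRNAs of 9 NMD factors (Upf1, Upf2, Upf3a, Upf3b, Smg1, Smg5, Smg6, Smg8 and Smg9), chosen by name, were followed among the 53380 genes of a count table from mouse embryonic stem cells (mESCs) and among the 7240 mRNAs of a table of decay factor binding. All 9 were present in both tables and all 9 passed the filter on low counts in every comparison.

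The count table covered 47 RNA-seq libraries of 2 clones of male mESCs grown in serum and LIF. Clone 5F carried Rosa26Cre-ERT2/- and Skiv2lfl/fl, and clone 7E was Aven-/- with Rosa26Cre-ERT2 over a BirA allele. The half-life labels of clone 7E give it 3xFLAG-Avi alleles of Skiv2l without the floxed allele, whereas its title and the list of cell lines in the methods name the floxed allele. Each clone was sampled at day 0 and at day 4 of 0.1 µM 4-hydroxytamoxifen (4OHT), which activates Cre-ERT2 and removes the exons for the SKIV2L catalytic domain, and in each state after mock treatment (0 min, DMSO for the length of the course) or after 120, 240 and 360 min of actinomycin D, which blocks transcription. There were 3 libraries per group, called technical replicates in the methods, except that clone 5F at day 0 and 120 min had 2; p-values therefore measure only the spread between these libraries. With 1 clone per genotype, clone and AVEN loss cannot be told apart, and neither can 4OHT, Cre activity and days in culture.

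Gene counts ranged from 24440935 to 34114250 per library. Embryonic stem cell markers were present (9 of 9 above 1 CPM in every mock group, summed to between 2700 and 3420 CPM, which is counts scaled to a common library total). Mock Skiv2l RNA was between 132 and 153 CPM in all 6 libraries of clone 5F and did not fall at day 4 (log2 change -0.01 ± 0.05 SE, adjusted p = 0.914), so these are called the libraries labelled day 4. In clone 7E Skiv2l was between 31.2 and 36.1 CPM at day 0 and between 12.4 and 13.8 CPM at day 4, and Aven was at or under 2.99 CPM in each mock library against at least 32.1 CPM in clone 5F. ERCC spike-in RNA made up 0.64 to 1.79% of the counts of clone 7E at day 4 and 0.28 to 0.90% in the other clone and day groups.

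The proteins act at the stop codon, so the stop codons of the 5 mRNAs that were higher at day 4 in both clones (below) are shown first, with the preceding 27 coding bases. The sequences are from the Gencode M21 transcripts of GRCm38, 5′ to 3′, with the stop codon in capitals.
Upf1: ggcggggtcaccgggctgtcccagtacTAG
Upf3a: aaggatcgcctgggacacaaggcccagTAG
Smg5: ttctacaggcagtggaaggagattggtTGA
Smg6: gccttccttacgtgggcccaggtgggcTGA
Smg9: ctggcagagtacagccgcctgctggccTGA
Upf1 and Upf3a ended in TAG, and the other 7 of the 9 mRNAs ended in TGA, which also ended 52.1% of the 6721 mRNAs whose transcript could be matched. TAA, the stop of 25.1% of those mRNAs, ended none of the 9.

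An exon junction well downstream of a stop codon is the classical mark of an NMD target. None of the 9 transcripts, the single one per gene in the binding table, had a junction more than 50 nt after the stop codon. This was a feature of 0.476% of all matched mRNAs. Other isoforms of these genes were not examined. Upf1 was the sole member with a junction after its stop codon, 3 nt downstream. A long 3′ UTR and an upstream start codon can also favour NMD. The 3′ UTRs ranged from 221 nt (Smg8) and 400 nt (Smg9) to 1498 nt (Smg6) and 4233 nt (Smg1), the last longer than in 94.2% of mRNAs, with a median of 958 nt against 994 nt over all mRNAs. An ATG lay upstream of the start codon in 4 of the 9 (Upf2, Smg1, Smg5 and Smg9), against 48.9% of all matched mRNAs. The coding sequences were long, with a median of 3050 nt against 1460 nt, and Smg1 at 10977 nt was longer than 99.5% of the others.

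Per kilobase of merged exons, Smg5 and Upf1 were the most abundant members and Smg9 the least. In the mock libraries of clone 5F at day 0 Smg5 stood at 37.7 ± 1.27 RPKM (SD, n = 3), followed by Upf1 at 33.5 ± 1.58 and Smg8 at 22.1 ± 0.57. Upf2 was at 17.8 ± 0.85, Upf3b at 14.0 ± 0.59, Smg1 at 13.3 ± 0.54 and Smg6 at 8.60 ± 0.22 RPKM. Upf3a was at 7.13 ± 0.19 and Smg9 at 6.20 ± 0.47 RPKM. Neighbours in this order did not overlap between libraries, except Upf3b and Smg1. In clone 7E at day 0 Upf1 came first, at 50.0 ± 2.09 RPKM, ahead of Smg5 at 36.8 ± 0.50, and Upf3a was at 13.0 ± 0.11, overlapping Smg1 at 13.1 ± 0.54. The order depended on the length used. Per length of the single transcript in the binding table, chosen after the values were seen, Upf3a rose from place 8 to place 6 in clone 5F at day 0 (20.3 ± 0.55 RPKM) and Upf2 moved from place 4 to place 7 (18.8 ± 0.90), while Smg5, Upf1 and Smg9 kept places 1, 2 and 9. In clone 7E at day 0 the top changed, with Smg5 first on this length at 57.6 ± 0.77 RPKM and Upf1 second at 50.0 ± 2.09.

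Gene positions on GRCm38 (Gencode M21) were chr8:70331525-70353278 on the minus strand for Upf1, chr2:5951469-6056703 on the plus strand for Upf2, chr8:13785615-13799193 on the plus strand for Upf3a and chrX:37091678-37110322 on the minus strand for Upf3b. Smg1 lay at chr7:118131308-118243670 on the minus strand, Smg5 at chr3:88336260-88362338 on the plus strand, Smg6 at chr11:74925823-75164448 on the plus strand, Smg8 at chr11:87077732-87086774 on the minus strand and Smg9 at chr7:24399619-24422778 on the plus strand. The sources used here do not say that these gene counts used the strand, and 1.47% of the exonic length of Upf1 overlapped exons of Cers1 and 1.49% of that of Smg6 overlapped exons of Srr on the opposite strand, so reads there cannot be told apart.

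The first comparison asked how mock levels moved between day 0 and day 4 of 4OHT in clone 5F. Upf1, Smg6, Smg9, Smg5 and Upf3a rose and no member fell, with 12.8% of the 16349 genes tested higher and 11.6% lower (edgeR quasi-likelihood test, Benjamini-Hochberg adjusted over all genes). The median log2 change of the 9 members was 0.16 against -0.01 over all genes tested. The changes were small, at most 1.29-fold. Of the embryonic stem cell markers 2 rose and 3 fell (sum from between 3400 and 3420 to between 3130 and 3230 CPM), of 6 primitive endoderm markers 1 rose and 2 fell (98.3 to 101 and then 86.7 to 88.8 CPM), and of 4 neural markers 1 rose and 1 fell (120 to 129 and then 144 to 155 CPM). Of the tested markers, 2 of 4 for fibroblasts (5.61 to 6.43 and then 7.82 to 9.27 CPM) and 1 of 3 for trophoblast (50.4 to 52.1 and then 53.3 to 61.9 CPM) rose; the part of these cells in the result was not tested. Because these are bulk samples, fewer cells of a type and less RNA per cell cannot be told apart.

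Upf1, the helicase, was at 150.5, 163 and 150.2 CPM in the day 0 libraries and at 193, 182 and 207 CPM in those labelled day 4, so the groups did not overlap (log2 change 0.36 ± 0.05 SE, adjusted p = 1.97e-05). Smg6, the endonuclease, was at 73.1, 70.6 and 74.3 CPM and then at 92.0, 89.7 and 83.4 CPM (0.32 ± 0.05, adjusted p = 0.000103). Smg9, a regulator of the SMG1 kinase, was at 21.9, 25.0 and 22.0 CPM and then at 29.1, 25.9 and 28.7 CPM (0.31 ± 0.07, adjusted p = 0.00236). Every day 4 library of Smg6 and Smg9 was above every day 0 library, although the lowest of Smg9 was above the highest by less than 1 CPM. Smg5, which links UPF1 to deadenylation and decapping, was at 258, 272 and 257 CPM and then at 292, 282 and 297 CPM (0.18 ± 0.04, adjusted p = 0.00415). Upf3a, the less active paralogue of Upf3b, was at 40.7, 42.9 and 41.9 CPM and then at 47.4, 42.8 and 46.6 CPM, with 1 library labelled day 4 inside the day 0 range (0.16 ± 0.06, adjusted p = 0.0447). That call for Upf3a was lost without any of 4 of the 6 libraries (day 0 replicates 1 and 3, day 4 replicates 1 and 3; adjusted p = 0.164, 0.105, 0.173 and 0.118).

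The other 4 members of clone 5F gave no call. Smg1, the kinase, was at 328, 324 and 304 CPM and then at 329, 351 and 335 CPM (0.12 ± 0.04, adjusted p = 0.0521), and it passed with TMM, DESeq2, limma or all 12 mock libraries in 1 fit (adjusted p = 0.0424, 0.0432, 0.0454 and 0.0402). Upf2, the bridge between UPF1 and UPF3, had a log2 change of -0.03 ± 0.05, Upf3b of -0.09 ± 0.05 and Smg8 of -0.06 ± 0.05 (adjusted p = 0.774, 0.241 and 0.398). With each library scaled to its own spike-ins, 3 of the 9 were called, all higher (Upf1, Smg6 and Smg9). Of the 16349 genes tested, 1063 were then called higher and 2351 lower.

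**Figure D1:**
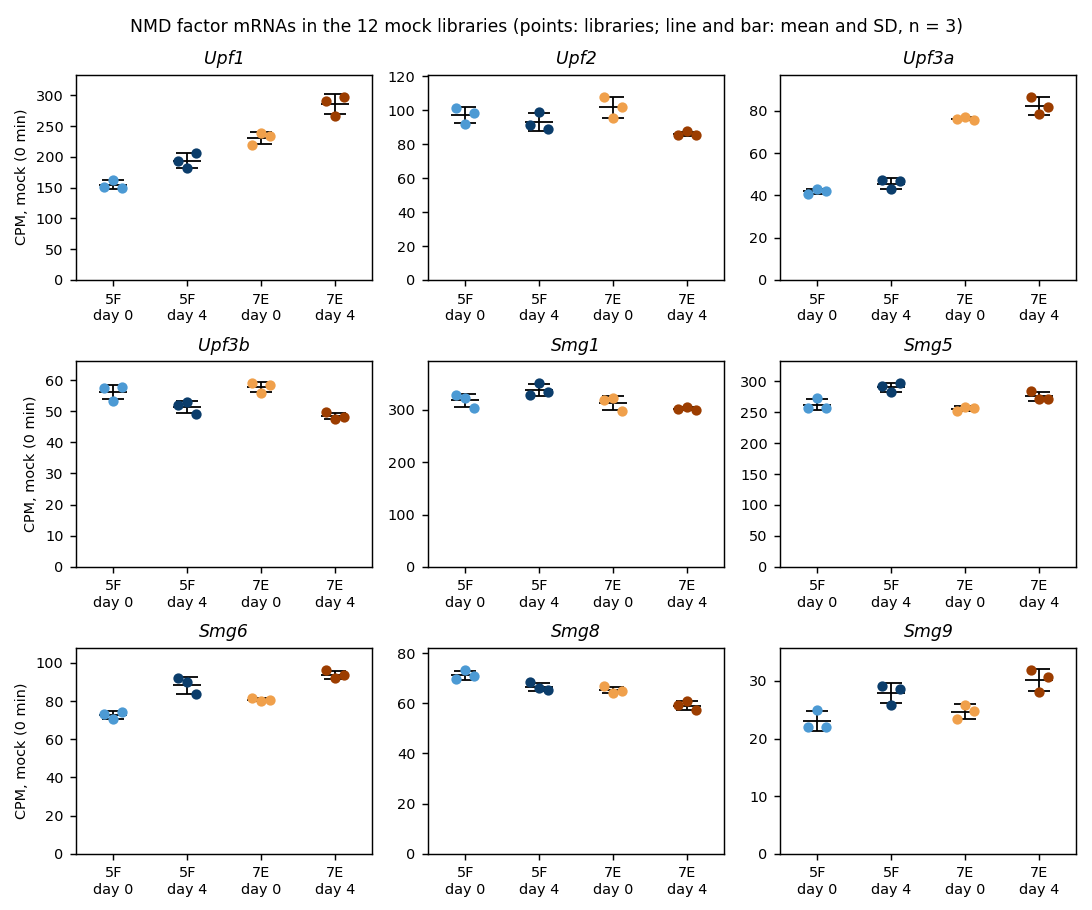
Levels of the 9 mRNAs in CPM (vertical axes from 0) in the 12 mock libraries, by clone and day; points are libraries and the line and bar are the mean and SD of 3. Upf1 and Upf3a stood highest in clone 7E, and Upf1, Smg6 and Smg9 were higher at day 4 than at day 0 in both clones on this scale, though not with own spike-ins in clone 7E.

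The same comparison in clone 7E, in which Skiv2l RNA fell at day 4 (log2 change -1.32 ± 0.07, adjusted p = 7.86e-13), gave calls for 7 of 9 members. Upf1, Smg9, Smg6, Smg5 and Upf3a rose, against 20.7% of the 16333 genes tested, and Upf2 and Upf3b fell, against 19.4%; these are changes relative to the median gene, and scaled to own spike-ins the median gene and all 9 members were lower at day 4 (-0.75 to -1.31). The median of the 9 was 0.15 against -0.01 over all genes tested. Of the embryonic stem cell markers, 7 of 9 fell at day 4 in this clone, to a sum between 2700 and 2780 CPM from between 3200 and 3310 CPM. Markers of other cell types moved too. All 3 tested trophoblast markers rose (sum from between 78.7 and 80.9 to between 118 and 120 CPM, with Elf5 at most at 0.058 CPM), as did 3 of 4 tested fibroblast markers (2.27 to 2.79 and then 5.22 to 6.72 CPM, with Postn at most at 0.022 CPM) and 2 of 6 primitive endoderm markers (11.0 to 12.5 and then 15.5 to 17.1 CPM). Of 4 neural markers 1 rose and 2 fell (169 to 182 and then 225 to 241 CPM). The part of these cells in the result was not tested.

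Upf1 was at 220.0, 239 and 234 CPM at day 0 and at 291, 267 and 298 CPM at day 4 (0.35 ± 0.05, adjusted p = 5.14e-06). Smg9 was at 23.4, 25.9 and 24.8 CPM and then at 31.9, 28.1 and 30.7 CPM (0.33 ± 0.07, adjusted p = 0.000408). Smg6 was at 81.5, 80.0 and 80.4 CPM and then at 96.1, 91.9 and 93.6 CPM (0.26 ± 0.05, adjusted p = 0.000185). All 3 were higher in each day 4 library than in each day 0 library. Smg5 was at 252, 259 and 257 CPM and then at 284, 271 and 271 CPM (0.15 ± 0.04, adjusted p = 0.0108). Upf3a was at 75.9, 77.0 and 75.7 CPM and then at 86.7, 78.4 and 81.7 CPM (0.15 ± 0.05, adjusted p = 0.0254).

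Upf2 and Upf3b fell in clone 7E, while Upf3a rose. Upf2 was at 108, 95.6 and 102 CPM at day 0 and at 85.4, 87.6 and 85.4 CPM at day 4 (-0.20 ± 0.05, adjusted p = 0.00393). Upf3b, the paralogue that carries most UPF3 activity, was at 58.96, 56.01 and 58.6 CPM and then at 49.6, 47.5 and 48.2 CPM (-0.22 ± 0.05, adjusted p = 0.00292). Neither gene overlapped between the days. Smg1 (-0.01 ± 0.04, adjusted p = 0.857) and Smg8 (-0.10 ± 0.05, adjusted p = 0.126) gave no call.

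Without day 0 replicate 1 of clone 7E, 4 of the 7 calls remained (Upf1, Upf3b, Smg6 and Smg9), while Upf2, Smg5 and Upf3a had adjusted p = 0.0537, 0.061 and 0.0817. The call for Upf3a was also lost without day 0 replicate 2 or 3 or day 4 replicate 1 (adjusted p = 0.0549, 0.0761 and 0.158), and that for Smg5 without day 4 replicate 1 (adjusted p = 0.0743). Scaling to each library's own spike-ins shifted the median of all genes by -1.11 log2 in this comparison, so that Upf1 stood at -0.75 and Upf3b at -1.31, and the 5 members that rose lay 0.16 to 0.36 above that shift while Upf2 and Upf3b lay at -0.19 and -0.20 from it.

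The difference between the clones in their day 4 change was tested directly. No member passed (edgeR, 12 mock libraries, 11.9% of 17209 genes called in either direction), and 2 of the 9 had an unadjusted p under 0.05. The differences, clone 7E minus clone 5F, ran from -0.18 to 0.02 log2. Upf2 had the lowest adjusted p (0.147), with a difference of -0.18 ± 0.08. The estimates plus or minus 2 SE for the 9 members spanned -0.33 to 0.21. With own spike-ins the median gene shifted by -1.03 and 14372 of the 17209 genes were called. All 9 members passed there too (-1.01 to -1.21).

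Within a day and time, differently numbered libraries of the 2 clones had an r of at most 0.442. Same-numbered libraries deviated together (r from 0.116 to 0.843). With these pairs as a block, chosen after the data were seen, 2 of the 9 differences passed, against 24.1% of all genes (edgeR): Upf2 (-0.17 ± 0.05, adjusted p = 0.00309) and Smg1 (-0.13 ± 0.03, adjusted p = 0.00171). The day 4 change of both was lower in clone 7E, but neither difference passed without replicate number 2 (adjusted p = 0.0826 and 0.0932). Upf3b did not pass (-0.12 ± 0.06, adjusted p = 0.118).

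**Figure D2:**
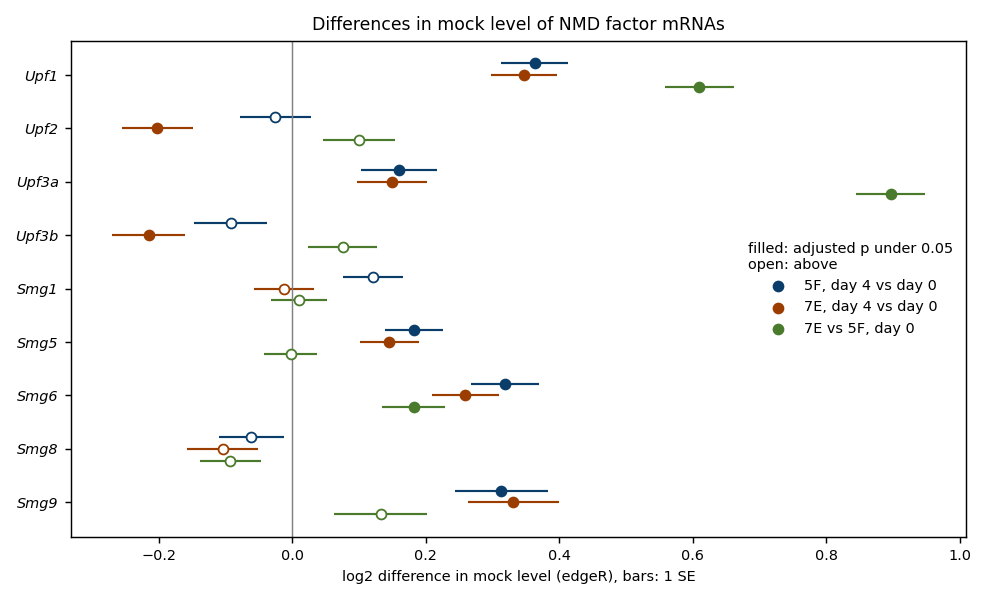
Log2 differences in mock level with 1 SE (horizontal axis) for the 9 mRNAs: day 4 against day 0 in clone 5F and in clone 7E, and clone 7E against clone 5F at day 0. Filled points passed an adjusted p of 0.05; with own spike-ins the day 4 values of clone 7E all lay below 0. Upf1 and Upf3a differed between the clones by 0.61 and 0.90.

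Before 4OHT, clone 7E held more Upf1, Upf3a and Smg6 mRNA than clone 5F, and no member passed as lower; 18.1% of the 17209 genes tested were higher in clone 7E and 18.1% lower. This comparison shares the day 0 libraries with the comparisons above. Upf3a stood out in size. Its day 0 libraries were between 40.7 and 42.9 CPM in clone 5F and between 75.7 and 77.0 CPM in clone 7E, a 1.86-fold difference (log2 0.90 ± 0.05 SE, edgeR, adjusted p = 2.24e-12). Upf1 went from between 150.2 and 163 CPM to between 220.0 and 239 CPM, or 1.53-fold (0.61 ± 0.05, adjusted p = 1.78e-09). Smg6 went from between 70.6 and 74.3 CPM to between 80.0 and 81.5 CPM (0.18 ± 0.05, adjusted p = 0.00376).

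The remaining 6 members gave no call in this comparison. Their differences, clone 7E minus clone 5F, were 0.13 ± 0.07 for Smg9, 0.10 ± 0.05 for Upf2, 0.08 ± 0.05 for Upf3b, 0.01 ± 0.04 for Smg1, 0.00 ± 0.04 for Smg5 and -0.09 ± 0.05 for Smg8 (edgeR, adjusted p from 0.124 to 0.97). With the clones paired by number, 6 of all 9 members passed, against 46.7% of all genes called in either direction. Without the pairs 3 of those had no call: Upf2 (edgeR, adjusted p = 0.00903) and Smg9 (0.0342) were higher in clone 7E and Smg8 (0.0345) was lower. DESeq2 with the same pairs called none of the 3, and each was lost with some replicate number left out (Upf2 without number 1, Smg8 without 2 or 3, Smg9 without 1, 2 or 3). Clone 7E also differed in Skiv2l (-2.10 ± 0.06) and in all 6 primitive endoderm markers, whose summed level was 98.3 to 101 CPM in clone 5F and 11.0 to 12.5 CPM in clone 7E at day 0; Sox17, the lowest of them in clone 7E, was at 1.0 CPM, and their part in the difference was not tested. With own spike-ins the median of all genes shifted by -0.17, with 1573 of all genes called higher in clone 7E and 6269 lower. Upf3a and Upf1 were still higher in clone 7E (0.74 and 0.45) and Smg6 was no longer called (0.0224, edgeR, adjusted p = 0.775). Smg1, Smg5 and Smg8 were called lower, and relative to that shift these 3 lay at 0.02, 0.01 and -0.09.

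Of 16 other NMD and exon junction genes, 1 rose and 3 fell in clone 5F at day 4 (edgeR), against 12.8% and 11.6% of all genes, with a median log2 change of -0.00728. In clone 7E 0 rose and 2 fell, against 20.7% and 19.4% of all genes, with a median of -0.00461, and 4 of the 16 had an unadjusted p under 0.05 in either direction. Nbas, which cooperates with NMD at the endoplasmic reticulum, rose in clone 5F (0.28 ± 0.05, adjusted p = 0.000197). Magohb, which encodes a core exon junction protein, fell in clone 7E (-0.43 ± 0.14, adjusted p = 0.0212) and was lower in that clone before 4OHT (-0.68 ± 0.12, adjusted p = 7.27e-05). Ruvbl1, an ATPase that assists SMG1, fell in both clones (-0.18 ± 0.05 in each, adjusted p = 0.0122 and 0.0101), and Ncbp2, the small cap-binding subunit, fell in clone 5F (-0.21 ± 0.05, adjusted p = 0.00422). Between the clones at day 0, 2 of the 16 were higher in clone 7E and 2 lower, against 18.1% of all genes each way. Ncbp2 (0.18 ± 0.05) and Casc3 (0.16 ± 0.04) were the 2 that were higher (adjusted p = 0.00696 and 0.00743).

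Of 12 RNAs known as NMD substrates, 7 rose and none fell in clone 5F at day 4, where 12.8% of all genes rose. In clone 7E 8 rose and none fell, where 20.7% of all genes rose. The list was chosen with earlier results of these data known, and the paper itself reports a rise of Ifrd1 after Skiv2l knockout. These counts are therefore a description and not an independent test. The largest rises were in genes that stress signalling also induces: Ddit3 (1.43 ± 0.13), Ifrd1 (1.00 ± 0.05) and Atf3 (0.92 ± 0.09) in clone 5F, and Atf3 (2.61 ± 0.10), Ddit3 (2.21 ± 0.13) and Atf4 (1.35 ± 0.05) in clone 7E (edgeR, adjusted p at most 2.34e-07 for each). Hosts of small nucleolar RNAs, whose spliced RNAs are standard NMD reporters, are also on the list. Values are given for 3 of them, chosen after these were seen. The cause of the rises on this list was not tested. Zfas1, another host on the list, passed as higher in clone 7E and not in clone 5F. Snhg1 rose by 0.15 ± 0.05 in clone 5F and 0.17 ± 0.06 in clone 7E, Snhg12 rose in clone 5F (0.15 ± 0.05) and gave no call in clone 7E (0.12 ± 0.06), and Gas5 gave no call in either (-0.03 ± 0.05 and 0.03 ± 0.06). The rise was larger in clone 7E for 5 of the 12, against 11.9% of all genes with a difference in either direction, led by Atf3 (difference 1.69 ± 0.14), Ddit3 (0.78 ± 0.21) and Atf4 (0.53 ± 0.07). At day 0, 3 of the 12 were higher and 2 lower in clone 7E, against 18.1% each way, with Gas5 higher (0.69 ± 0.06, adjusted p = 2.92e-09) and Atf3 lower (-0.83 ± 0.11, adjusted p = 2.48e-06).

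The decay course asked how fast the mRNAs were lost after actinomycin D. Counts were normalized within a time point and then scaled by 1 spike-in factor per time point (0.649, 0.531 and 0.438 at 120, 240 and 360 min), and the level left is given in percent of the mock mean of the same clone and day. Smg8 was lost fastest. In clone 5F at day 0 it was at 22.6 ± 0.39% (SD, n = 2) after 120 min and at 6.53 ± 0.32% (n = 3) after 360 min. At 360 min it was at 6.93 ± 0.42% in the clone 5F libraries labelled day 4, 7.71 ± 0.65% in clone 7E at day 0 and 7.96 ± 0.37% in clone 7E at day 4. The other 8 mRNAs still held between 32.6% (Smg5, clone 5F labelled day 4) and 53.4% (Upf3b, clone 5F labelled day 4) at that time.

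The shape of the loss differed between members. Smg5 and Upf3a lost RNA at each step. In clone 5F at day 0, 75.3% of Smg5 was left over the first 120 min, 73.2% of that over the second and 67.4% of that over the third, and Upf3a kept 76.4%, 76.9% and 70.0%. Upf2 and Smg1 dropped early and then slowed. Upf2 kept 52.6%, then 82.4% and then 105% of the preceding level, and Smg1 kept 55.8%, 79.2% and 91.7%. Upf1 kept 61.2%, 80.0% and 84.3%. Smg8 kept 22.6%, 52.9% and 54.7%, so its loss was steepest in the first step. The order was alike in clone 7E at day 0, where Upf2 kept 53.2%, 82.8% and 97.0% and Smg5 75.8%, 74.5% and 64.6%.

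**Figure D3:**
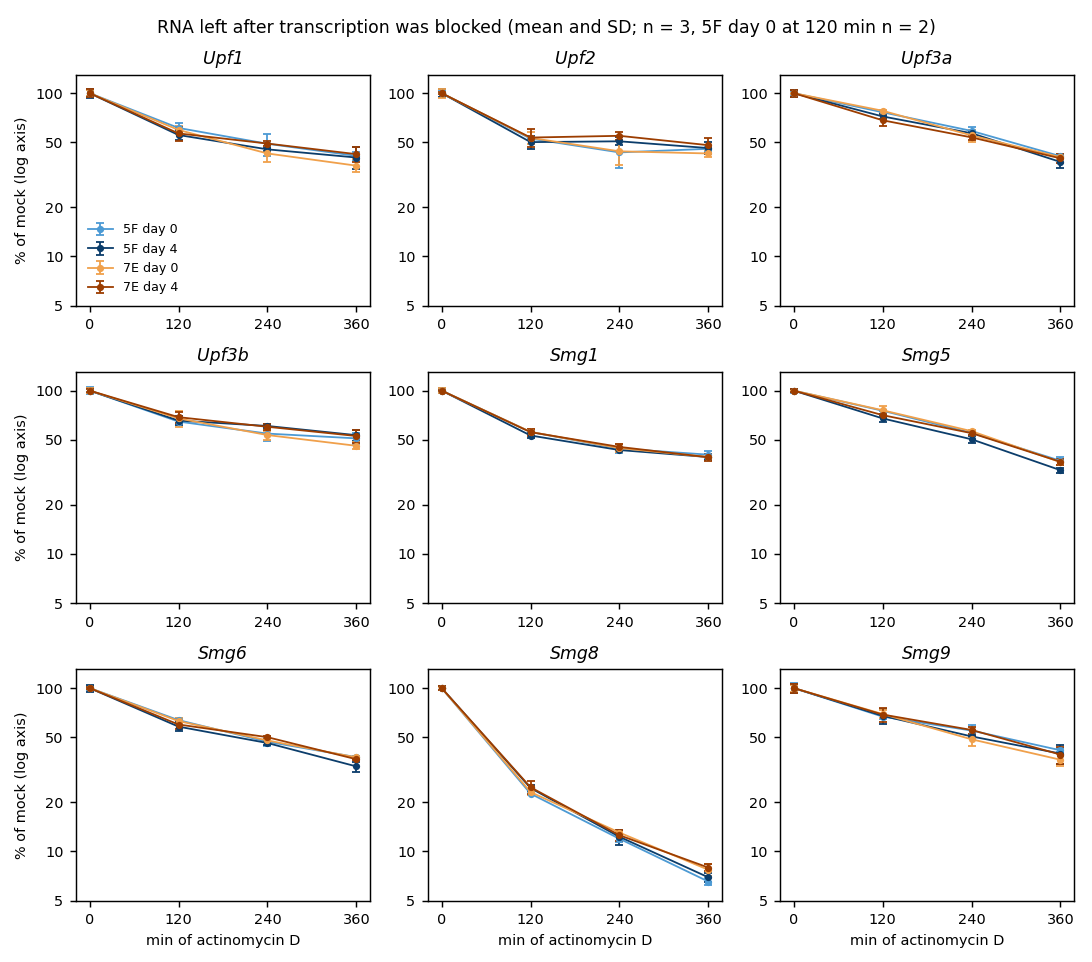
RNA left in percent of the mock mean (log axis) against min of actinomycin D for the 9 mRNAs, by clone and day; points are means and bars the SD of 3 libraries (2 for clone 5F at day 0 and 120 min). Smg8 fell to between 6.53 and 7.96% by 360 min and the 4 courses of each mRNA lay close together.

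Half-lives from a straight line of ln(normalized count + 1) on time summarised this, with the range for the slope plus or minus 1 SE. Smg8 had a half-life of 93.1 min (86.8 to 101) in clone 5F at day 0, 95.9 min at day 4, and 101 min in clone 7E on both days, at percentiles 3.07 to 4.05 of the 10226 mRNAs with a mean of at least 100 counts. The median mRNA had 287 to 291 min, and the other 8 members lay between percentile 34.8 (Smg5, clone 5F at day 4) and percentile 81.4 (Upf3b, clone 7E at day 4). In clone 5F at day 0 Smg5 had 254 min (245 to 264), Smg6 256 min (242 to 272), Smg1 277 min (246 to 316), Upf1 284 min (257 to 319), Upf3a 284 min (274 to 296) and Smg9 292 min (275 to 312). Upf2 at 316 min (260 to 402) and Upf3b at 372 min (327 to 431) were the longest lived. Apart from Smg8, neighbours in this order had overlapping ranges. The range of Upf3b lay above those of all members but Upf2, and that of Upf3a above those of Smg5 and Smg6.

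Smg8 was the shortest lived and Upf3b the longest lived in the other states as well, although the range of Upf3b overlapped that of Upf2 in each. In clone 7E at day 0 Upf1 was at 244 min (224 to 268), Smg9 at 246 min, Smg5 at 250 min, Smg6 at 260 min, Upf3a at 272 min, Smg1 at 274 min, Upf2 at 303 min and Upf3b at 324 min. At day 4 Upf1 was at 283 min in clone 5F and 305 min in clone 7E, Upf2 at 359 and 381 min, the second at percentile 76.6, and Upf3b at 424 and 404 min. Smg5 was at 227 min in clone 5F and 255 min in clone 7E. Leaving out the 360 min libraries shortened the median over the 36 half-lives from 274 to 237 min, and Smg8 then stood at 78.4 to 81.8 min. Of the 36, 30 moved by more than 1 SD between replicates, so the values depend on the times fitted.

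**Figure D4:**
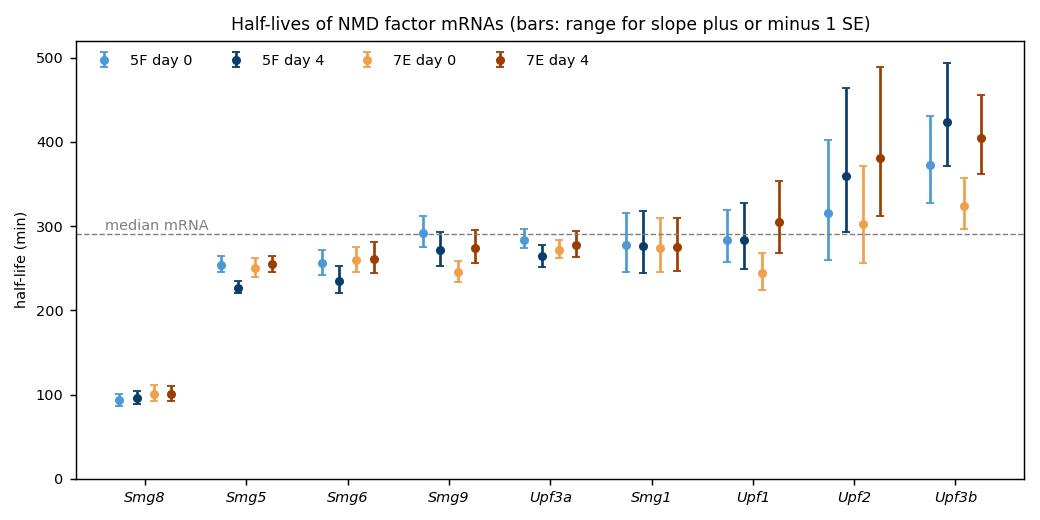
Half-lives in min (vertical axis from 0) of the 9 mRNAs in each clone and day, with bars for the slope plus or minus 1 SE and a dashed line at the median mRNA. Smg8 sat at 93.1 to 101 min and the other 8 between 227 and 424 min.

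With unpaired libraries no member's decay rate passed the threshold in any comparison (edgeR, slope on time). In clone 5F the day 4 minus day 0 differences in slope ran from -0.03 to 0.02 log2 per hour, where a positive value is slower loss, with 0.199% of 17108 genes called in either direction. Smg5 had the lowest unadjusted p, 0.0604, with a slope change of -0.028 ± 0.014. In clone 7E the differences ran from 0.00 to 0.05, with 0.911% of 16791 genes called, and Upf3b had the lowest unadjusted p (0.148). Clone 7E minus clone 5F at day 0 gave -0.04 to 0.05, with 0.0391% of 17893 genes called, and the difference between the clones in the day 4 change gave -0.02 to 0.05, with 0% called by edgeR and 4 genes called by DESeq2. No member had an unadjusted p under 0.05 in any of the 4 comparisons, in which 631, 1474, 802 and 443 genes did. The SE of these unpaired differences in the first 3 comparisons ran from 0.014 to 0.063 log2 per hour, so the smallest difference that could pass varied between members.

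With the same-numbered libraries of the clones at each day and time as a block, 3 members passed between the clones at day 0, against 10.1% of all genes called in either direction (edgeR). Upf1 was lost faster in clone 7E (slope difference -0.0362 ± 0.00777 log2 per hour, adjusted p = 0.00165), as was Smg9 (-0.0371 ± 0.0121, adjusted p = 0.0434), and Smg8 was lost more slowly (0.0379 ± 0.0114, adjusted p = 0.0268). The day 4 change in slope differed between the clones for Upf1 (0.0515 ± 0.0109, adjusted p = 0.00667), against 2.75% of all genes. This block also takes up the departure from a straight line that both clones share. At day 0, Upf1 had an adjusted p of 0.0516 without number 2 and 0.0526 without number 3, Smg8 of 0.364 and 0.184, and Smg9 did not pass when any 1 number was left out. The Upf1 difference in the day 4 change had an adjusted p of 0.0622, 0.0736 and 0.188 without numbers 1, 2 and 3. limma with this block called Upf1 in both comparisons and neither Smg8 nor Smg9.

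Without the block, of the 16 partner genes, Pnrc2, which links UPF1 to decapping, was lost more slowly in clone 7E than in clone 5F at day 0 (0.16 ± 0.03 log2 per hour, adjusted p = 0.0254), although no gene passed in that comparison when any 1 of the 3 replicate numbers was left out. The 12 NMD substrates gave no call in these unpaired fits.

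Over the 16 groups of clone, day and time, the genes whose normalized profile lay nearest to the mean profile of the members were Cabin1, Arl8b, Golim4, Grb2 and Sap18, with distances of 0.198 to 0.287 log2 units and Pearson r of 0.993 to 0.997 among 10584 genes with a median distance of 1.34. The groups share the loss after actinomycin D, which sets most of each profile. Among the members Smg6 lay nearest to that mean (0.354, with 21 other genes nearer) and Smg8 farthest (3.37, with 10040 nearer).

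CRAC, in which a tagged protein is crosslinked to RNA with UV and the bound fragments are sequenced, gave the binding of 3 decay factors to each mRNA: MTR4, the helicase of the nuclear exosome, SKIV2L, and XRN1. The authors pooled the replicates of each protein and gave each mRNA's share of the scaled counts, so these are single values without error. The members did not share a factor. SKIV2L had the largest share for 4 of the 9 (Smg9, Upf3a, Upf1 and Upf3b), as for 26.5% of all mRNAs. XRN1 had the largest share for 3 of the 9 (Smg5, Smg8 and Upf2), as for 38.1%, and MTR4 for 2 (Smg6 and Smg1), as for 35.4%. The same factor came first for each member after the authors' adjustment for RNA level in the tagged lines.

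Smg5 lay at one end, with 51.6% XRN1 and 14.6% SKIV2L, an XRN1 to SKIV2L ratio of 3.53 that exceeded that of 88.3% of mRNAs. Smg9 and Upf3b lay at the other end, with 47.6 and 41.7% SKIV2L and 17.6 and 17.3% XRN1, ratios of 0.369 and 0.414. Upf3a had 44.3% SKIV2L and 32.2% XRN1, and Upf1 43.2% and 37.5%, with the lowest MTR4 share of the members (19.3%). Smg6 had the highest MTR4 share (44.0%). Upf2 (31.8% MTR4, 31.1% SKIV2L and 37.1% XRN1) and Smg1 (36.5, 31.8 and 31.6%) were bound about evenly, and Smg8, the short-lived member, had 42.1% XRN1, 32.6% SKIV2L and 25.4% MTR4.

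AVEN, an RNA-binding protein found with the SKI complex, was given in percent of the same 3-factor sum and can exceed it. Upf3a stood apart, with AVEN at 138% of the sum, above 99.8% of mRNAs, against 61.4% for Smg9, 51.1% for Smg5 and 50.6% for Smg1. Upf3b (47.8%), Smg8 (46.9%) and Upf1 (40.8%) followed, and Smg6 (21.4%) and Upf2 (19.0%) were below the median of all mRNAs, 29.5%. The median of the members was 47.8%. The RPKM values that the authors deposited for the lines in which these proteins were tagged had Upf3a as the most abundant member (median 49.3), ahead of Smg5 at 46.9 and Upf3b at 41.5, and Smg9 as the least (9.0).

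**Figure D5:**
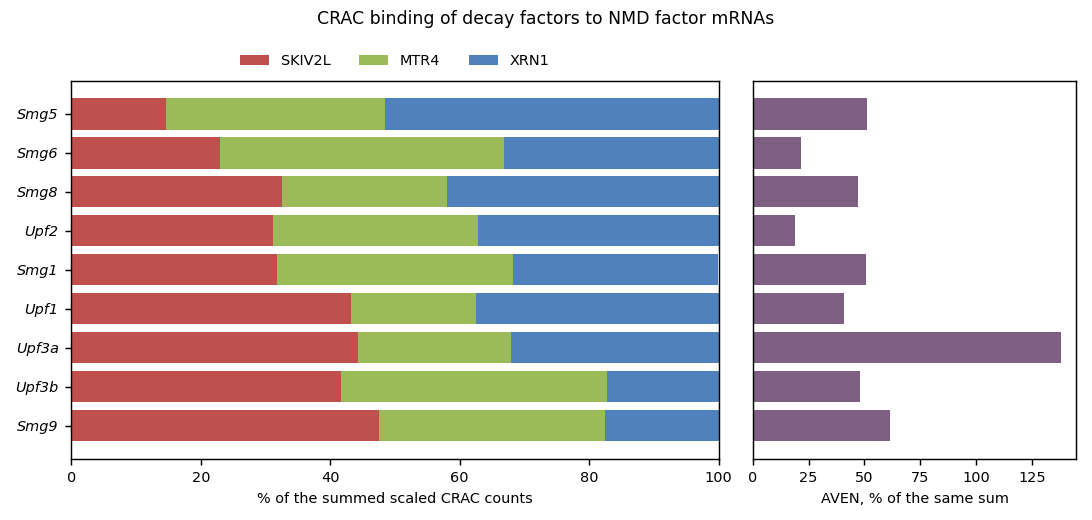
Left, share of the summed scaled CRAC counts in percent taken by SKIV2L, MTR4 and XRN1 for each of the 9 mRNAs, ordered by the XRN1 to SKIV2L ratio; right, AVEN in percent of the same sum. Values are the authors' pooled values without error bars. Smg5 had the largest XRN1 share (51.6%), Smg9 the largest SKIV2L share (47.6%) and Upf3a the largest AVEN value (138%).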

How the data were processed

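Reads (50 nt, single-end, after ribosomal RNA removal) were mapped by the authors with STAR to GRCm38 with ERCC sequences, and unique mappers were deposited as counts per gene without normalization. The authors' deposited CRAC ratios are pooled, scaled counts divided by their sum over MTR4, SKIV2L and XRN1; a further score adjusts them for the deposited RPKM of the tagged lines. The authors' deposited half-lives, fold changes and p-values were not used. Columns were matched by name, with 0 per-sample columns left unused.

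The members and gene lists were chosen with earlier results of these data known. Gene names for 53275 of 53380 genes came from Gencode M21. Size factors (DESeq2 1.42.0) were computed separately for each duration of actinomycin D, and a factor for each duration came from the 34 of 92 ERCC sequences averaging above 50 counts. Tests used edgeR 4.0.16 (R 4.3.3) after filterByExpr on all genes, each clone alone for day effects and all libraries otherwise, with an adjusted p of 0.05; limma 3.58.1, DESeq2, TMM and other filters were alternatives. Same-numbered libraries correlated across the clones within a day and time (deviations from group means, every r at least 0.116 in the 7 sets with 3 libraries per clone) and not across days, so the clones were also compared with these pairs as a block. The fits were also run on simulated data. For the paired fits these were built with a shift shared by each pair, so they could not test the pairing itself. All 9 members are named. From other lists up to 3 genes with the largest called change per comparison are named, and Snhg1, Snhg12, Gas5 and Zfas1 after their values were seen. 1 further gene is not reported here. RPKM used merged exons. Identical libraries were looked for and none was found. In the count table clone 5F at day 0 and 120 min had only the libraries numbered 1 and 3. The labels give actinomycin D at 5 µg/µl and the methods another unit.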

Additional observations from a re-analysis of the deposited data

Results flagged for a closer look

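No member passed the test of a difference between the clones in the response to 4OHT with unpaired libraries, against 11.9% of all genes. With the clones paired by replicate number Upf2 and Smg1 passed, against 24.1% of all genes. With own spike-ins all 9 members passed, as did 14372 of the 17209 genes tested. Among the other genes named, the unpaired test (clone 7E minus clone 5F, day 4 minus day 0, edgeR, adjusted over all genes) passed for 4. Atf3 rose more in clone 7E by 1.69 log2, Ddit3 by 0.78 and Atf4 by 0.53. Skiv2l, the targeted gene, differed by -1.31; it fell in clone 7E and not in the clone 5F libraries labelled day 4.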

How the results depend on the processing

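Of 1260 member changes recomputed under the alternatives, 1181 stayed on their side of the threshold, 68 of these with a change of sign smaller than 1 SE and no call either way; 19 lost and 49 gained a call and 11 reversed. Own ERCC spike-ins accounted for 10 of the 11. Under them 3 members were called in clone 5F (in place of 5), 5 between the clones at day 0 (in place of 3) and 9 in the difference between the clones (in place of 0), where the median of all genes shifted by -1.03. The genes called in these comparisons then numbered 3414, 7842 and 14372, in place of 3998, 6231 and 2056. Reversed values were Upf1 -0.75, Upf3a -0.95, Smg5 -0.95, Smg6 -0.84 and Smg9 -0.77 in clone 7E at day 4; Upf2 -0.0602, Upf3b -0.0842, Smg1 -0.15 and Smg9 -0.029 between the clones; and Smg9 -1.01 in the difference. The other was Smg9's decay change in clone 7E with 1 replicate left out (-0.0125 to 0.0473 log2 per hour; -0.0125 without replicate 2). With 1 library left out, 4 to 5 members were called in clone 5F, 4 to 7 in clone 7E (4 without day 0 replicate 1) and 3 to 4 between the clones. With the clones paired, all libraries of 1 replicate number were left out at a time. That gave 0 to 2 members in the difference and 0 to 2 in the decay rate between the clones. The median half-life was 237 min without the 360 min libraries. In that setting 30 half-lives moved by more than 1 SD between replicates, and Smg8 stood at 78.4 to 81.8 min. Own spike-ins moved 9 half-lives beyond that SD. The cause of these changes was not tested.

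Same-numbered mock libraries of day 0 and day 4 did not deviate together (r from -0.40 to -0.04), so the numbers do not pair the days; the replicate block called 4 members in clone 5F and 5 in clone 7E, where Upf3a and Smg5 had adjusted p = 0.0703 and 0.0509. Across the clones, same-numbered libraries of 1 day and time deviated together, and these pairs were used as a block. This pairing was inferred from the same counts, and the paper does not state it. At day 0 and 360 min, number 2 of clone 5F matched number 1 of clone 7E better (r = 0.164) than its own number (r = 0.116). The block across the clones called 6 members in place of 3 between the clones (6 with limma, but with DESeq2 the same 3 as without the block). In the difference it called 2 in place of 0 (2 with DESeq2 and 2 with limma). In the decay rate between the clones it called 3 in place of 0 (3 with DESeq2, 1 with limma). In the difference in decay it called 1 in place of 0 (2 with DESeq2, 1 with limma). It called 4151 genes in place of 2056 in the mock difference, 1816 in place of 7 in the decay rate between the clones and 492 in place of 0 in the difference in decay. DESeq2 with this block called 2286, 1979 and 692 genes in these comparisons. No member gained a decay call under the other alternatives, although the number of all genes called ranged from 2 to 53 (main 34) in clone 5F, 26 to 267 (main 153) in clone 7E, 0 to 61 (main 7) between the clones and 0 to 5 (main 0) for the difference; own spike-ins called 14974 genes in place of 6551 in the mock comparison of clone 7E and 14372 in place of 2056 in the difference. The spread is technical, and there is 1 clone per genotype.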
